A study of Mus musculus with 4 samples.

Results

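The genes described here are markers and effectors of immune cells: macrophage, granulocyte, lymphocyte and mast cell genes, antigen-presentation genes and complement genes, measured in the developing mouse molar. They were chosen by name, as 44 gene symbols, and matched to the probe sets (groups of short probes that report 1 transcript) that name a single gene in the array's annotation. Of the 44, 43 were measured, by 73 probe sets, out of 18193 genes measured by 34945 such probe sets on the array. The gene C3, for the central complement component, was named alone by no probe set in the annotation used and is not analysed here.

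All RNA came from 1 pool of molar teeth, extracted manually from 60 untreated pups of the outbred Swiss-Webster strain, of both sexes and aged 1 to 10 days. It was hybridised to 4 Affymetrix Mouse Genome 430 2.0 arrays, which form 1 group and are called arrays 1 to 4. The spread between them is technical, so every SD and p-value below measures technical spread only, and values of single pups or days are not separated. The study set these arrays against other tissues, which are not analysed here, so each gene is set against background instead of against another tissue.

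A tooth germ is a vascularised organ set in bone, and the pulp, follicle and socket hold resident macrophages from early on. Macrophages take up debris and pathogens through scavenger and Fc receptors, and they make C1q, the recognition subunit that starts the classical complement pathway. Osteoclasts, which clear the path of eruption through bone, come from the same myeloid precursors and share several of these genes. Granulocytes mature in bone marrow and circulate in blood, while B and T lymphocytes recognise antigen through receptors that signal through the CD79 and CD3 chains.

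The deposited signals are linear MAS5 intensities, which carry no detection call here. A probe set was called above background when its signal exceeded, on each of the 4 arrays, the 95th percentile of 86 probe sets for olfactory, vomeronasal or taste receptor genes. These thresholds were 995.6, 1097.1, 1294.9 and 1266.3 units on arrays 1 to 4. A gene was called when any of its probe sets was. As a second reading, limma tested (one-sided) whether the mean of log2(signal/threshold) exceeded 0, with p-values adjusted over all 34945 probe sets by the Benjamini-Hochberg method. It treats the threshold as fixed. Probes differ in affinity, so signals are not compared between genes as amounts of mRNA. In a pool, fewer cells of a type and less RNA per cell cannot be told apart.

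The labelled tissue was checked first. All 7 tooth markers, among them the enamel matrix genes Amelx and Ambn, were above background, beside 51.6% of all genes. Of 7 measured liver markers 0 were, by the 4-array rule or by limma, adjusted or unadjusted. The median of the tooth markers was 95.1-fold over the threshold. Among genes above background the correlation of log2 signals across genes was between 0.971 and 0.98 in the 6 array pairs. Genes are not independent replicates.

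Under the main rule the listed immune genes were above background about as often as all genes. The direction and size of the difference depended on the rule. Of the 43 measured, 20 were above background (46.5%), beside 51.6% of all 18193 genes. By limma 18 were called (41.9%), beside 51.0% of all genes, and 22 at an unadjusted p under 0.05, beside 52.3% of all genes. The listed share was the higher one when 3 of 4 arrays sufficed (58.1%, beside 55.9% of all genes), without array 4 (58.1%, beside 54.1%) and with the 75th percentile as threshold (72.1%, beside 65.3%). With the 99th percentile as threshold the listed share was the lower one (34.9%, beside 48.2% of all genes). The median listed gene lay 1.26-fold over the threshold, and the median of all genes 1.43-fold. The lineages lay on either side of this average: 12 of the 19 leukocyte, macrophage and Fc receptor genes were called, all 3 measured complement genes, and 1 of the 7 T and B cell genes. The numbers of genes per lineage are small, and these counts are descriptions without a test.

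**Figure D1:**
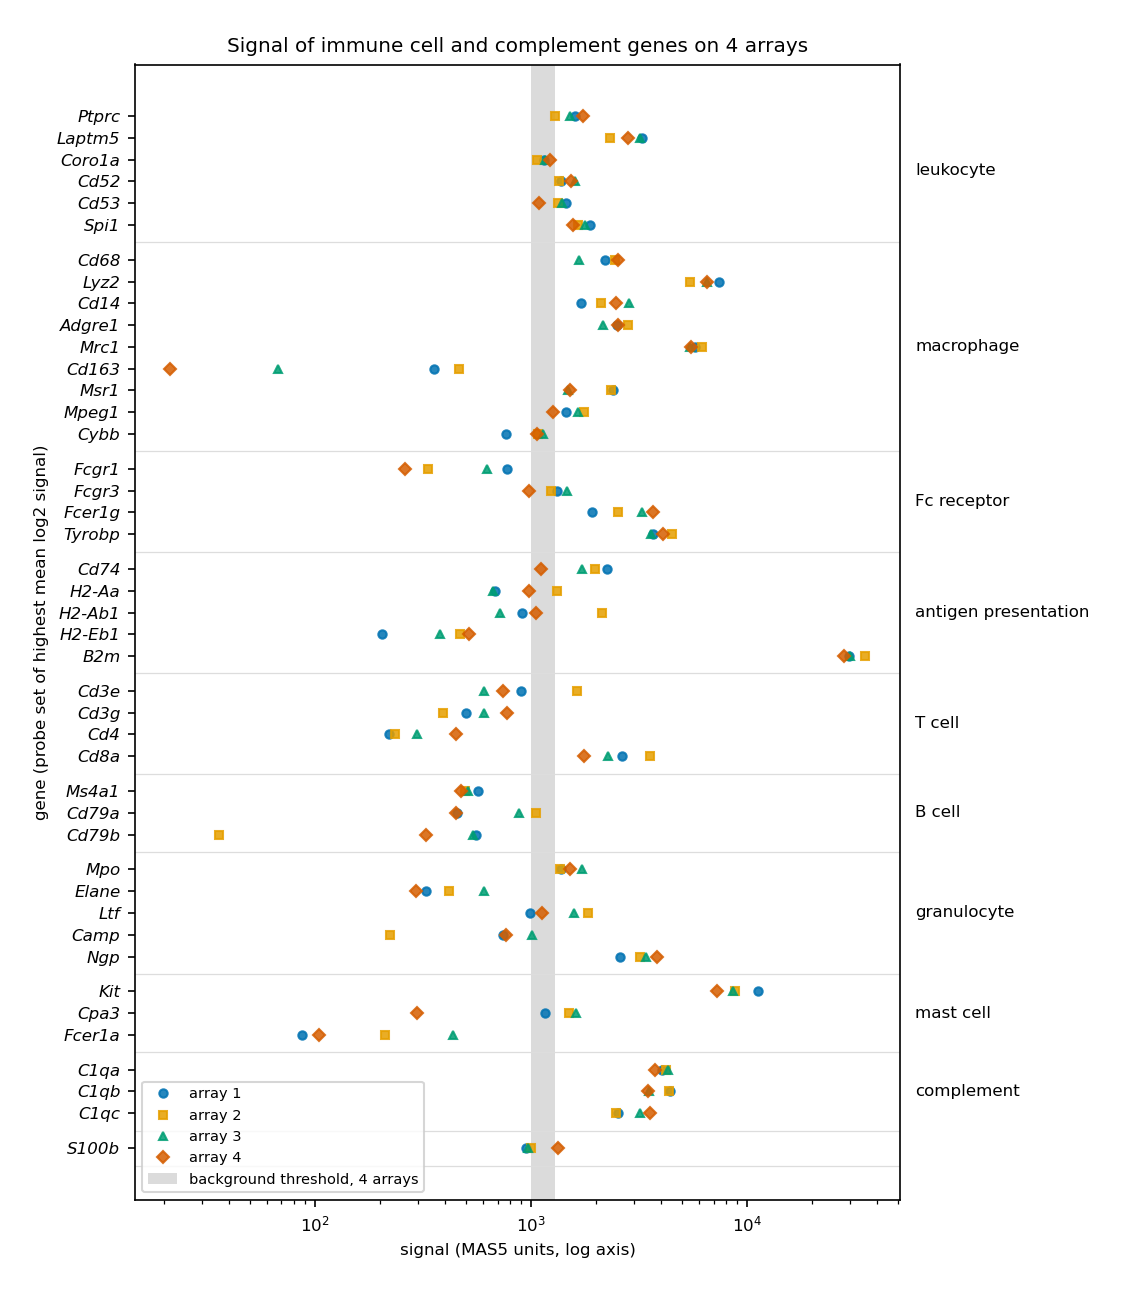
Signal of each of the 43 measured genes on arrays 1 to 4 (points, log axis, MAS5 units), ordered by lineage. The grey band spans the background thresholds of the 4 arrays, 995.6 to 1294.9 units. B2m stands highest, the C1q, Lyz2, Mrc1 and Kit points lie to the right of the band, and the B cell genes lie to its left or reach its edge.

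C1q genes were above background throughout. C1q is assembled from A, B and C chains, encoded by C1qa, C1qb and C1qc, and all 3 genes passed on every array. C1qa had signals of 4016, 4190, 4305 and 3731 on arrays 1 to 4, or 3.51-fold over the threshold (log2 1.81 ± 0.13, SE). C1qb had 4377, 4362, 3507 and 3479, or 3.38-fold, and C1qc had 2516, 2461, 3201 and 3557, or 2.51-fold. These signals exceeded the threshold on every array, and the limma adjusted p-values ranged from 5.39e-10 to 8.7e-08. Each of the 3 probe sets of C1qb passed on all 4 arrays, with means between 2734 and 3931. In the RefSeq annotation C1qa, C1qc and C1qb are neighbours with no protein-coding gene between them.

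The classical pathway continues with C1r and C1s, the proteases that C1q activates. In a list of 28 further complement genes, 24 were measured and 8 were above background (33.3%), beside 51.6% of all genes, and their median was 0.525 times the threshold. The 3 called with the highest signal over the threshold were C1qbp, a mitochondrial protein first found as a C1q-binding protein, at 37176 ± 5488, and the membrane inhibitors Cd59a and Cd55, at 18629 ± 660 and 9535 ± 1008 (SD, n = 4). Not above background were, in alphabetical order, C1qtnf3 at 1612 ± 321, which passed on 3 arrays, C5ar1 at 252 ± 163 and C6 at 642 ± 362. Chosen after their values were seen, C1ra had 2759, 2274, 2175 and 1672 on arrays 1 to 4, and C1s1 had 3166, 3270, 2739 and 2857. Serping1, the inhibitor of both proteases, had 6433, 6815, 6937 and 6215, and C3ar1, a receptor for a C3 fragment, had 1290, 1640, 1660 and 1680. All of these passed on every array. The genes of the terminal attack complex C8a, C8b, C8g and C9 had means of 44.8, 125, 104 and 528 and passed on 0 arrays.

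Macrophage genes were called for 6 of 9 members, beside 51.6% of all genes. Lyz2, the lysozyme of macrophages and granulocytes, had signals of 7425, 5434, 6500 and 6540, or 5.56-fold over the threshold (log2 2.48 ± 0.13, SE; limma adjusted p 5.2e-12). Mrc1, the mannose receptor of tissue-resident macrophages, had 5709, 6152, 5422 and 5474, or 4.91-fold (log2 2.30 ± 0.12; limma adjusted p 1.14e-11). Both genes lay far over the threshold on each array, and the SD of Mrc1, 0.08 on the log2 scale, was the smallest among the 20 genes called.

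Adgre1, which encodes the macrophage antigen F4/80, had 2501, 2807, 2146 and 2512, or 2.14-fold over the threshold. Cd14, a co-receptor for bacterial lipopolysaccharide, had 1700, 2103, 2841 and 2479, or 1.94-fold. Cd68, a lysosomal membrane glycoprotein, had 2200, 2434, 1664 and 2530, or 1.88-fold. These 3 genes cleared the threshold on all arrays by a smaller margin, with limma adjusted p-values of 4.7e-06, 1.74e-05 and 9.85e-05. Msr1, a scavenger receptor, had 2395, 2350, 1482 and 1514 by 1 of its 4 probe sets, and the call rests on that probe set. A second probe set of Msr1 passed on 3 arrays and the remaining ones on 0.

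The other macrophage genes did not pass. Mpeg1, a pore-forming protein of macrophages, had 1446, 1751, 1643 and 1266 and missed the threshold on array 4 only, where its signal and the threshold both round to 1266. Cybb, the catalytic subunit of the phagocyte oxidase, had 768, 1080, 1132 and 1063 and passed on 0 arrays, with the lowest signal on array 1. Cd163, a scavenger receptor for haemoglobin, had 357, 464, 67.5 and 21.3 and also passed on 0 arrays. Its SD of 2.10 on the log2 scale was the largest among the 43 genes.

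Leukocyte genes were called for 4 of 6 members, beside 51.6% of all genes, and 3 of the 4 lay under 2-fold over the threshold. Laptm5, a lysosomal protein of blood cells, had 3278, 2314, 3180 and 2797, or 2.48-fold over the threshold, and passed by 3 of its 5 probe sets. These 3 carry the suffix _s_at or _x_at, for probes that may also bind other transcripts. The only Laptm5 probe set without such a suffix had a mean of 364 and passed on 0 arrays. Spi1 encodes PU.1, a transcription factor needed for macrophages and B cells, and had 1865, 1643, 1785 and 1569, or 1.48-fold (limma adjusted p 0.00734). Ptprc, the common leukocyte antigen CD45, had 1591, 1298, 1522 and 1743, or 1.32-fold, by 1 of its 2 probe sets. The other probe set of Ptprc had a mean of 150 and passed on 0 arrays. Cd52, a small surface glycoprotein, had 1380, 1341, 1600 and 1528, or 1.26-fold. Ptprc and Cd52 exceeded the threshold on every array yet were not called by limma (adjusted p 0.0526 and 0.103). Cd53, a tetraspanin, had 1449, 1329, 1390 and 1083 and missed on array 4. Coro1a, an actin-binding protein of leukocytes, had 1153, 1065, 1155 and 1218 and passed on 1 array.

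Of the Fc receptors and their signalling adaptors, 2 of 4 genes were called, beside 51.6% of all genes. The adaptors Tyrobp (DAP12) and Fcer1g (the common Fc receptor gamma chain), which pass on signals from many myeloid receptors through a shared tyrosine motif, were both called. Tyrobp had 3679, 4482, 3578 and 4090, or 3.41-fold over the threshold (log2 1.77 ± 0.13, SE; limma adjusted p 1.16e-09). Fcer1g had 1905, 2532, 3260 and 3682, or 2.39-fold (log2 1.25 ± 0.15; limma adjusted p 4.43e-07). Its SD of 0.42 on the log2 scale was the second largest among the 20 genes called, after Cd8a, with array 1 lowest and array 4 highest. The receptors for IgG were not called on all arrays. Fcgr3 had 1322, 1242, 1471 and 978, and was called without array 4, and Fcgr1 had 778, 333, 628 and 262 and passed on 0 arrays.

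Further myeloid genes were read from a list of 30, of which 28 were measured and 11 were above background (39.3%), beside 51.6% of all genes. Csf1r, the receptor that macrophages and osteoclasts need to survive, had a signal of 20413 ± 2425. Mertk, a receptor for apoptotic cells, had 6726 ± 582, and Ctss, a lysosomal protease of antigen-presenting cells, 4874 ± 611 (SD, n = 4). Aif1 at 823 ± 385, the monocyte chemokine receptor gene Ccr2 at 577 ± 281 and Cd300a at 1048 ± 114 did not pass. Osteoclast markers were above background for 4 of 9 (44.4%), beside 51.6% of all genes. They were led by Ctsk at 22447 ± 3408 and Mmp9 at 14644 ± 1453. The summed signal of the osteoclast markers ranged from 49321 to 59825 over the arrays, and Calcr, the calcitonin receptor, passed on 0 arrays. Tyrobp, Fcer1g, Spi1, Csf1r and Cd68 are also made by osteoclasts, and the part of osteoclasts in their signals was not tested.

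**Figure D2:**
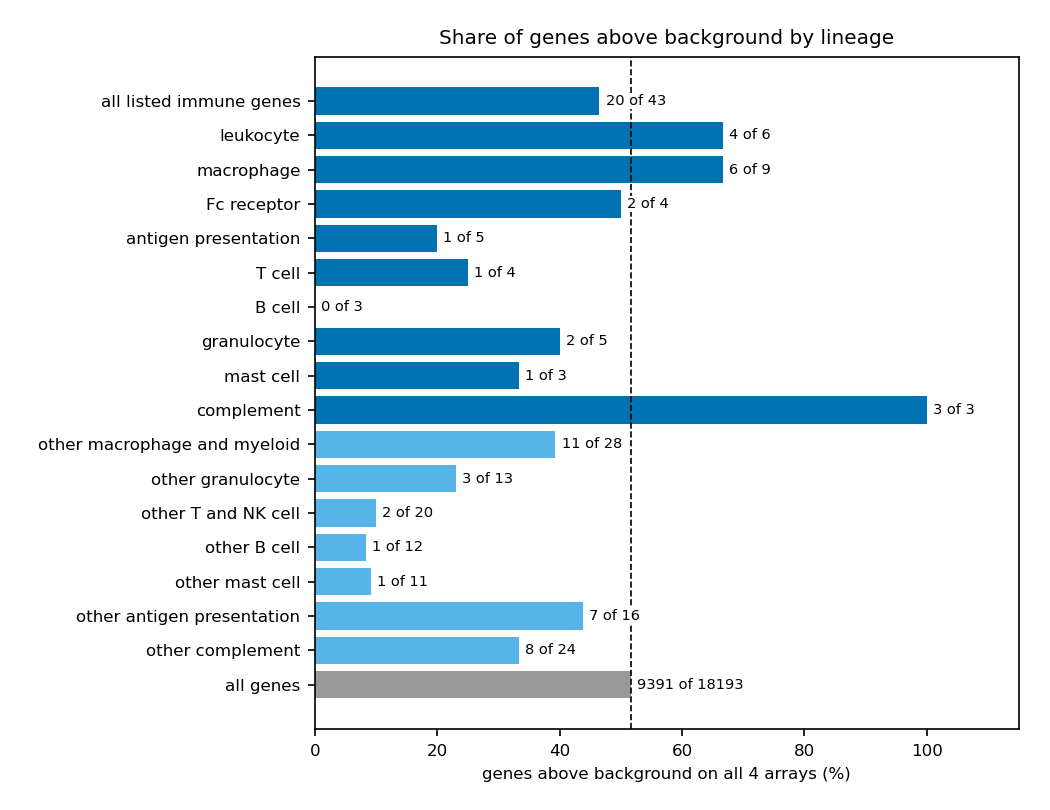
Percentage of measured genes above background on all 4 arrays, for the listed immune genes and each lineage (dark bars), for further genes of the same lineages (light bars) and for all genes (grey bar and dashed line, 51.6%). Complement, leukocyte and macrophage bars of the listed genes pass the dashed line, while the bars of lymphocyte and mast cell genes stay below it.

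Of the 5 antigen-presentation genes, B2m was called and the class II genes were not, beside 51.6% of all genes called. B2m, the invariant light chain of MHC class I molecules on nearly all nucleated cells, had signals of 29490, 35160, 29939 and 28102, or 26.4-fold over the threshold (log2 4.72 ± 0.12, SE; limma adjusted p 1.12e-15). A second probe set of B2m had 26914, 23558, 24325 and 20693. Both B2m probe sets passed on every array, far from the threshold.

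MHC class II molecules present peptides from outside the cell and are made mainly by dendritic cells, B cells and activated macrophages. None of their 4 listed genes passed on all arrays; limma called 1 of the 4, Cd74, also at an unadjusted p under 0.05. Cd74, the invariant chain that guides class II molecules, had 2250, 1966, 1721 and 1110, above the threshold on arrays 1 to 3 and below it on array 4 (1.47-fold; limma adjusted p 0.0223). H2-Aa, an alpha chain, had 684, 1321, 669 and 976, and H2-Ab1, its partner beta chain, had 904, 2123, 716 and 1060. By these probe sets, the brightest of each gene, both exceeded the threshold on array 2 only. A second probe set of H2-Aa exceeded it on array 4, at 1743. A second of H2-Ab1 exceeded it on arrays 2 and 4, at 1322 and 1561. H2-Eb1, another beta chain, had 204, 467, 379 and 514 and passed on 0 arrays.

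The 3 class II chain genes are neighbours in the RefSeq annotation, with no protein-coding gene between H2-Ab1 and H2-Aa or between H2-Aa and H2-Eb1. Class II promoters are known for shared elements called the X and Y boxes, through which the coactivator CIITA acts. The promoters of 31 of the 43 genes were in the RefSeq set used (GRCm38.p6, 250 bases before to 50 after the start), and the class II pair is shown because it carries the Y box as the letters CTGATTGG, in capitals. H2-Aa lies at chr17:34287774-34288073 on the minus strand, and H2-Eb1 at chr17:34305617-34305916 on the plus strand.
H2-Aa: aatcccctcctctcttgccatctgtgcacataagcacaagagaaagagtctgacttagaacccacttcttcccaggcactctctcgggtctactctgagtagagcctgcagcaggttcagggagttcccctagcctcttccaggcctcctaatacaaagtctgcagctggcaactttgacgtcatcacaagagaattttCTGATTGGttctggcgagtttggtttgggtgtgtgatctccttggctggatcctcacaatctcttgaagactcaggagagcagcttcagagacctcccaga
H2-Eb1: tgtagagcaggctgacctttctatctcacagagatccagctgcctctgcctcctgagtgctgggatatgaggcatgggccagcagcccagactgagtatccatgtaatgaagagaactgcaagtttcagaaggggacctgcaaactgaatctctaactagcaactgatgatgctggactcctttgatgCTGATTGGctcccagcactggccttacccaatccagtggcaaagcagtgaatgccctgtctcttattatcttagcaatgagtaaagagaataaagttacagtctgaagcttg

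The Y box letters began 51 bases before the start of H2-Aa and 62 bases before that of H2-Eb1, on the strand of the gene. Among the 31 listed genes with a promoter these were the only ones to hold CTGATTGG on either strand, while 4.1% of all 32851 promoters did. TAGCAAC, part of the X box, was in the promoters of Cd68, H2-Eb1 and Mpeg1 and in 3.66% of all promoters. Of a further 17 antigen-presentation genes, 16 were measured and 7 were above background (43.8%), beside 51.6% of all genes. They were led by the chaperones Calr at 72760 ± 6842 and Pdia3 at 61222 ± 2815, which serve secreted proteins at large, and by the lysosomal protease Ctsl at 33866 ± 1099 (SD, n = 4). Ciita had 526 ± 360 and passed on 0 arrays, as did H2-Oa at 121 ± 65.6, while H2-DMa, at 967 ± 317, passed on 1 array.

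Lymphocyte genes were mostly at background. Of 4 T cell genes 1 was called, beside 51.6% of all genes. Cd3e and Cd3g encode chains of the T cell receptor complex. Cd3e had 901, 1628, 603 and 743, above the threshold on array 2 only, and Cd3g had 499, 391, 604 and 771 and passed on 0 arrays. Cd4, the co-receptor of helper T cells, had 221, 235, 297 and 449 and passed on 0 arrays.

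Cd8a, the co-receptor of cytotoxic T cells, was called through 1 of its 5 probe sets. That probe set had 2638, 3560, 2273 and 1764, or 2.14-fold over the threshold (limma adjusted p 3.59e-05), and its suffix _x_at marks probes that may also bind other transcripts. The other probe sets of Cd8a had means of 784, 400.5, 370 and 62.9 and did not pass, so the probe sets of this gene disagree.

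The B cell genes were called on 0 of 3, by the 4-array rule and by limma, adjusted or unadjusted. Ms4a1, the surface antigen CD20, had 567, 493, 514 and 475. Cd79a and Cd79b, the signalling chains of the B cell receptor, had 455, 1053, 879 and 449, and 556, 36.2, 540 and 327. Among further lymphocyte genes, 2 of 20 measured T and NK cell genes (10%) and 1 of 12 measured B cell genes (8.33%) were above background, beside 51.6% of all genes. Cd2, Cd247 and Cd28, of T cells, and Blk, Cd22 and Cd37, of B cells, had means between 168 and 623 and passed on 0 arrays.

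Granulocyte genes were called for 2 of 5 members, beside 51.6% of all genes. Ngp, a granule protein of neutrophil precursors, had 2593, 3209, 3414 and 3817, or 2.79-fold over the threshold (log2 1.48 ± 0.13, SE; limma adjusted p 1.1e-08). Mpo, the myeloperoxidase of primary granules, had 1373, 1365, 1719 and 1507, or 1.28-fold, and limma did not call it (adjusted p 0.0783). Ltf, lactoferrin of secondary granules, which glands also secrete, had 992, 1837, 1588 and 1128 and passed on 2 arrays. Camp, the cathelicidin precursor, had 740, 223, 1014 and 762, and Elane, neutrophil elastase, had 327, 417, 604 and 295. Camp and Elane passed on 0 arrays.

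Of 18 further granulocyte genes, 13 were measured and 3 were above background (23.1%), beside 51.6% of all genes. These were Mmp9, which osteoclasts also make, and the calprotectin genes S100a8 at 3955 ± 395 and S100a9 at 2213 ± 509 (SD, n = 4), which some epithelia also make. Chil3, Csf3r and Ctsg had means of 278, 475 and 214 and passed on 0 arrays. Red blood cell markers were above background for 2 of 6 measured (33.3%), beside 51.6% of all genes. The 2 were Alas2 at 4418 ± 628 and, by 1 of its 2 probe sets, Hbb-b2 at 1781 ± 377. The summed signal of the red blood cell markers ranged from 8050 to 8646 over the arrays. Hba-a1, Epb42 and Rhag passed on 0 arrays. The part of blood left in the teeth in the granulocyte signals was not tested.

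PU.1, the product of Spi1, is known to bind sequences with a GGAA core near many myeloid genes. The full letters GAGGAAGT were in the promoters of 4 of the 31 listed genes with one, C1qc, Cd53, Elane and Mpo, and in 3.2% of all promoters. C1qc, called, and the primary granule pair Mpo, called on every array, and Elane, on 0 arrays, are shown with these letters, on either strand, in capitals. C1qc lies at chr4:136892865-136893164 on the minus strand, Mpo at chr11:87793534-87793833 and Elane at chr10:79886062-79886361, both on the plus strand (GRCm38.p6).
C1qc: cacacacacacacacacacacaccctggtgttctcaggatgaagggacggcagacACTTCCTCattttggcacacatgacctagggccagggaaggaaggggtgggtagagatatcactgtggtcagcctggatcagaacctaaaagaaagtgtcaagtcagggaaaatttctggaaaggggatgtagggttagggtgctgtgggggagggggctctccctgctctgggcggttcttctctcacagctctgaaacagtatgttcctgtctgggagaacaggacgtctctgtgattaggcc
Mpo: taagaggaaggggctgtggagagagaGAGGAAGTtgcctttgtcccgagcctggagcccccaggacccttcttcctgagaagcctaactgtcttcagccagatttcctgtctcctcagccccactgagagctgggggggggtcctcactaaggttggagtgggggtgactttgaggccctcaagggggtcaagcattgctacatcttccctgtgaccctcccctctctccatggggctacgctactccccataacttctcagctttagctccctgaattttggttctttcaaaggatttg
Elane: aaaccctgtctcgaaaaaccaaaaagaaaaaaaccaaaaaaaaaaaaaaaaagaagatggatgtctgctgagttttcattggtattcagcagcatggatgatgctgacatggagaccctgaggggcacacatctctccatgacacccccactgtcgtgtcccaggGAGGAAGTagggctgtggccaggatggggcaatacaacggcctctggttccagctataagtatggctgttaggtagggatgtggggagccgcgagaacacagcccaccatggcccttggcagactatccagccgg

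The letters began 195 bases before the start in C1qc, 224 in Mpo and 85 in Elane. Of the 4 genes with the full letters, 2 were called and 2 were not. Shorter strings, which overlap these letters, were also searched on both strands: GAGGAAG was in 9 of the 31 promoters (29%) and in 13.6% of all promoters, AGGAAG in 19 (61.3%) and in 35.4%, and GGAAGT in 14 (45.2%) and in 23.8%. Among the 13 genes called and the 18 not called, AGGAAG was in 9 and 10. TATAAA was in 5 of the 31 (16.1%) and in 13.6% of all promoters. The strings were chosen with these promoters in view and are a description, not evidence of binding.

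Mast cell genes were called for 1 of 3 members, beside 51.6% of all genes. Kit, the receptor for stem cell factor on mast cells, melanocytes and blood progenitors, had 11206, 8802, 8577 and 7269, or 7.66-fold over the threshold (log2 2.94 ± 0.14, SE; limma adjusted p 2.21e-12). A second probe set of Kit had 2579, 2744, 2458 and 3745, and both passed on every array. Cpa3, a carboxypeptidase of mast cell granules, had 1157, 1495, 1610 and 298, above the threshold on arrays 1 to 3 and far below it on array 4. Fcer1a, the IgE-binding chain, had 88, 211, 434 and 105 and passed on 0 arrays.

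Cpa3 and Fcer1a were thus not called on all 4 arrays beside Kit, although Cpa3 was called without array 4. In a further list, 1 of 11 measured mast cell genes was above background (9.09%), beside 51.6% of all genes. It was Gata2 at 2099 ± 177, by 1 of its 2 probe sets. Cma1 at 1363 ± 256 passed on 3 arrays, and Cd200r3 and Hdc, at 33.3 ± 19.8 and 134 ± 69.2, on 0 arrays (SD, n = 4). Melanocyte markers were above background for 2 of 6, beside 51.6% of all genes, and their summed signal ranged from 4266 to 6637. Mitf had 2253 ± 315, by 1 of its 2 probe sets. Dct had 1298 ± 174, or 1.11-fold over the threshold, and limma did not call it (adjusted p 0.49). Tyr, Tyrp1, Pmel and Mlana passed on 0 arrays. The part of mast cells and melanocytes in the Kit signal was not tested.

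S100b, a calcium-binding protein best known from glia and Schwann cells and also made by cartilage cells, had signals of 952, 1000, 965 and 1340 and exceeded the threshold on array 4 only. Schwann cell markers were above background for 4 of 7 measured, beside 51.6% of all genes. They were led by Pmp22 at 29524 ± 1595 and, by 3 of its 8 probe sets, Mbp at 4957 ± 881. Their summed signal lay between 38909 and 43483, and Pmp2 passed on 0 arrays. Cartilage markers were above background for 2 of 7 (28.6%), beside 51.6% of all genes. The 2 were Col11a2 at 26680 ± 3311 and Col2a1 at 4118 ± 918 (SD, n = 4). The summed signal of the cartilage markers lay between 32816 and 38799, and Matn1, Matn3 and Comp passed on 0 arrays.

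**Figure D3:**
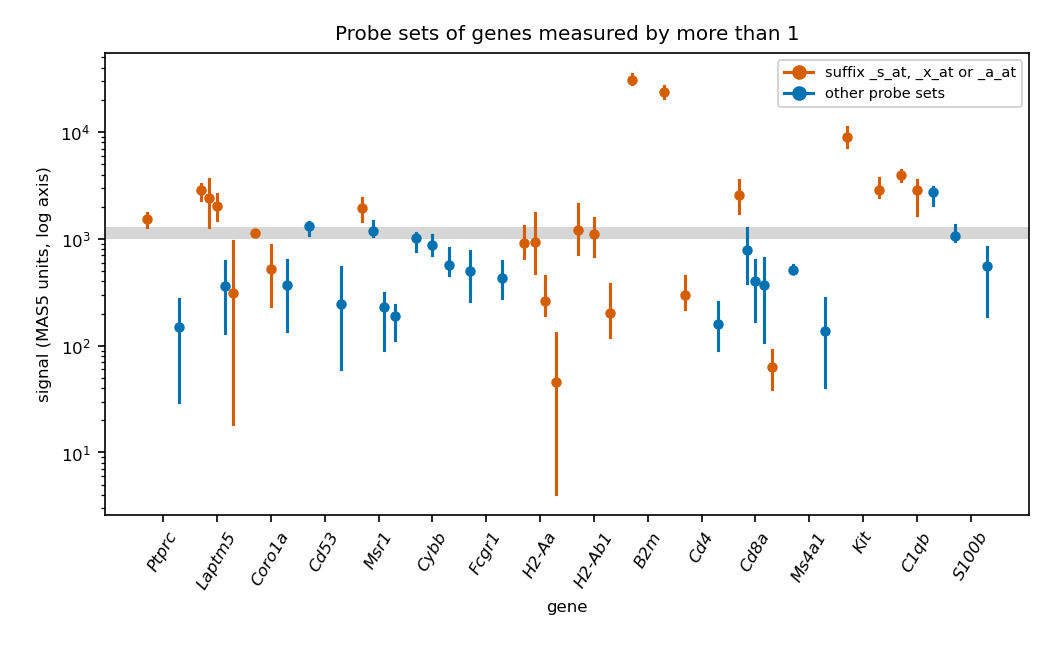
Every probe set of the 16 genes measured by more than 1, with the mean signal (point) and the lowest to highest array (line), on a log axis in MAS5 units. The grey band spans the thresholds of the 4 arrays; orange marks probe sets whose suffix (_s_at, _x_at or _a_at) denotes shared sequence. B2m, Kit and C1qb have every probe set above the band, and Ptprc, Laptm5, Msr1 and Cd8a have probe sets on both sides.

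Probe sets of the same gene gave different calls for 4 of 16 genes. Of the 43 genes, 27 had 1 probe set and 16 had several. All probe sets passed for B2m, Kit and C1qb, none passed for 9 genes, and some passed for Ptprc, Laptm5, Msr1 and Cd8a. In total 26 of the 73 probe sets passed, beside 42.5% of all probe sets naming 1 gene. The suffix _a_at marks sequence shared by transcripts of the same gene, whereas _s_at and _x_at may reach other genes.

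Array 4 carried the fewest listed genes over its threshold. By the brightest probe set of each gene, 26, 29, 26 and 21 of the 43 exceeded the threshold on arrays 1 to 4, beside 11007, 10917, 10271 and 9873 of all 18193 genes, for which array 4 was also lowest. Cd53, Mpeg1, Fcgr3, Cd74 and Cpa3 missed on array 4 alone, and without that array 25 of 43 were above background (58.1%), beside 54.1% of all genes. Among the 20 genes called, the SD between arrays on the log2 scale had a median of 0.19, or 1.14-fold, beside 0.16 for all genes above background. Among the 23 not called it was 0.46, beside 0.62 for all genes not above background. Of the 20 genes called, 13 had a mean more than 2-fold over the threshold and 7 lay between it and 2-fold.

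**Figure D4:**
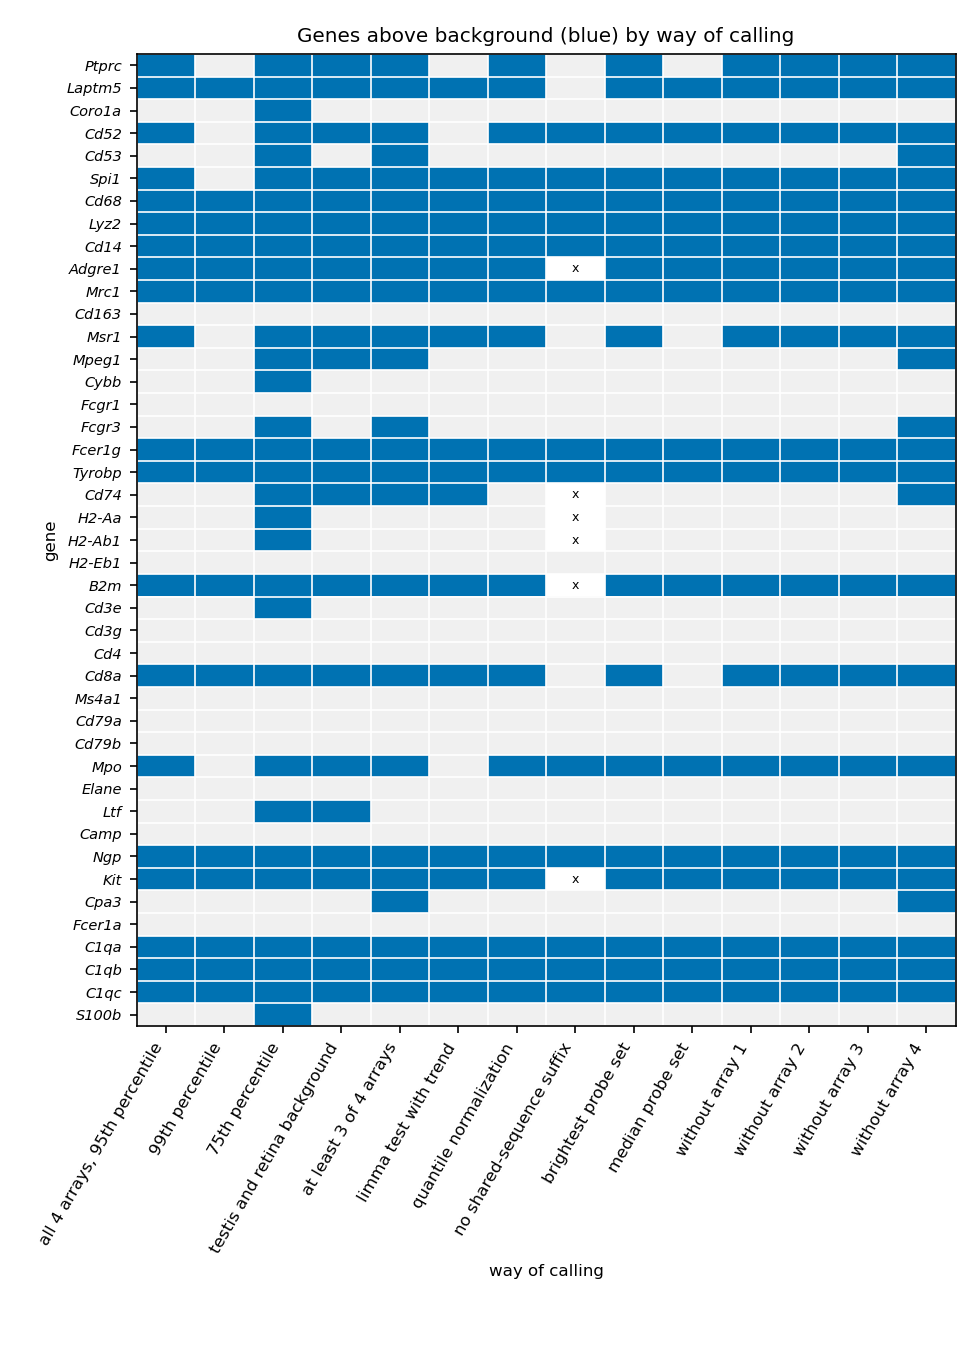
Call of each of the 43 genes (rows) under the main rule and 13 other ways of calling (columns), with blue for above background, grey for not above and a cross where no probe set was left. The rows of 13 genes, Cd68, Lyz2 and the C1q genes among them, are blue in every column that has a value, and 11 rows are grey in every column.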

How the data were processed

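The authors' deposited table holds 1 linear signal intensity per probe set and array, summarised with MAS5 per the submitters' processing notes; neither version nor settings are given there. MAS5 subtracts a mismatch estimate, which makes dim signals noisy. Trimmed of 2% of probe sets at each end, every array averaged 2500 units, so the arrays had been scaled alike. From these values, probe sets naming 1 gene in the platform annotation were kept (34945 of 45101), leaving out 64 control probe sets. Log2(signal/threshold) was tested with limma 3.58.1 (eBayes with trend, R 4.3.3). A gene's values come from the probe set whose log2 signal averaged highest.

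The 44 genes, 7 further lists of 141 entries (17 not measured here), 7 marker lists and all tests were chosen with earlier results of these data known. The text names all members; of each further list up to 3 genes above background with the highest signal over the threshold and the first 3 not above it by alphabet; of each marker list the first 2. Others were chosen after their values were seen: C1ra, C1s1, Serping1, C3ar1, C8a, C8b, C8g, C9, the marker genes given as passing on 0 arrays, and those in the closing section. Alternatives were other percentiles, a testis and retina background, 3 of 4 arrays, limma, quantile normalisation, other choices of probe set and leaving out each array. The number of arrays limits the precision.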

Additional observations from a re-analysis of the deposited data

Results flagged for a closer look

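In 56 sets of 4 array values (43 genes and the medians of gene groups), a gap test looked for 1 array lying apart from the other 3 on the log2 scale. It picked out 2 sets, where chance gives about 1 in 20, or 2.8. Cybb was lower on array 1, at 9.58, than on the other arrays, at 10.05 to 10.14. S100b was higher on array 4, at 10.39, than on the others, at 9.90 to 9.97. Both genes lie close to the background threshold.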

How the results depend on the processing

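The count of listed genes above background was 20 of 43. It was 31 (72.1%, beside 65.3% of all genes) with the 75th percentile as threshold and 15 (34.9%, beside 48.2%) with the 99th. Without probe sets whose suffix marks shared sequence it was 13 of 37 (35.1%, beside 46.6%). Under the other alternatives it lay between 17 and 25. Without each array in turn it ranged from 20 to 25, the highest without array 4. Of the single genes, 13 were above background and 11 were not under the main rule and all 13 alternatives that gave them a value, and 19 changed under at least 1. The share of all genes was 48.2% with the 99th percentile, 65.3% with the 75th and 51.0% with limma. It was 46.6% without shared-sequence suffixes, 42.7% with the median probe set and 53.9% with the testis and retina background. It was 55.9% with 3 of 4 arrays and 51.8% to 54.1% without each array. Leukocyte genes numbered 4 of 6, but 1 with the 99th percentile, 2 with limma and 2 without shared-sequence suffixes. Antigen-presentation genes numbered 1 of 5, but 4 with the 75th percentile, 2 with the testis and retina background, 2 with 3 of 4 arrays, 2 with limma, 0 of 1 without shared-sequence suffixes, and 1 to 2 without each array. T cell genes numbered 1 of 4, but 2 with the 75th percentile, 0 without shared-sequence suffixes and 0 with the median probe set. Granulocyte genes numbered 2 of 5, but 1 with the 99th percentile and 1 with limma. Mast cell genes numbered 1 of 3, but 2 with 3 of 4 arrays, 0 of 2 without shared-sequence suffixes, and 1 to 2 without each array. S100b was above background with the 75th percentile (1 of 1). Quantile normalisation changed no call of a listed gene. Where suffixes were left out, fewer genes were measured (Adgre1, Cd74, H2-Aa, H2-Ab1, B2m and Kit had no probe set left); otherwise the cause was not tested. No paired analysis was possible because all arrays form 1 group.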

Other observations

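Of the further lymphocyte genes, 1 of 12 measured B cell genes and 2 of 20 measured T and NK cell genes were above background, beside 51.6% of all genes. Blnk, an adaptor of B cell receptor signalling, had signals of 19923, 22904, 22896 and 26435 on arrays 1 to 4 by its only probe set, or 19.8-fold over the threshold, while 0 of 3 listed B cell genes were called. Thy1, a surface glycoprotein of T cells that neurons and fibroblasts also carry, had 8121, 7592, 7705 and 8537, or 6.90-fold. Zap70, a kinase of T cell receptor signalling, had 3101, 4120, 4017 and 3251 by 1 of its 3 probe sets, or 3.11-fold, and the other probe sets did not pass. The other genes of these lists did not pass on all arrays, though Ebf1, a B cell transcription factor, exceeded the threshold on 3.

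Among class I genes, H2-K1 and H2-D1, the classical heavy chains, had 10732 ± 820 and 6896 ± 592, and Tapbp, a chaperone of peptide loading, 10091 ± 653 (SD, n = 4). The probe sets that gave these values of the heavy chains carry the suffix _x_at, for sequence shared with other transcripts. For H2-K1 3 of its 4 probe sets passed, and for H2-D1 3 of its 9. Ifi30, a lysosomal thiol reductase, had 8536 ± 982. The peptide transporter gene Tap1 and the immunoproteasome genes Psmb8 and Psmb9 had means of 716, 827 and 698 and passed on 0 arrays.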
